A study of Xenopus laevis with 24 samples.

Results

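Foregut explants came from Xenopus laevis embryos given a translation-blocking morpholino against the transcription factor Rfx6. They were compared with mismatch controls at Nieuwkoop and Faber stage 38 (NF38), the last stage sampled. All 3 rfx6 morphant (rfx6-MO) libraries and all 3 control libraries of that stage were used, 6 of the 24 libraries of the series, and every gene of the deposited table was considered. The table lists 44478 genes, of which 28313 had enough counts to be tested. The remaining 18 libraries served to estimate the spread between replicates and to place the NF38 values against NF25 and NF33.

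Foregut tissue, the anterior endoderm with its mesoderm, was cut from wild type NXR_0031 embryos at NF15 and kept at 15 °C. It was cultured for 16 h to NF25, for a further 16 h to NF33 and for a further 12 h to NF38. The rfx6-MO group came from embryos given 2.5 ng of a translation-blocking rfx6 morpholino as 2-cell embryos, which is 1.25 ng for each cell. The control group came from embryos given 2.5 ng of an oligonucleotide carrying 5 mismatched bases, and its explants were cultured in 0.1% DMSO. The labels do not say whether the morphants were also kept in DMSO. A difference in DMSO from the controls can therefore not be told apart from the rfx6 morpholino. The earlier stages held the same 2 groups, and NF25 and NF33 also held explants given BMS493 at 250 nM, which keeps retinoic acid receptors inactive. For the BMS493 explants neither an injection nor a DMSO percentage is given. A difference in injection from the controls can therefore not be told apart from BMS493. Each library is a pool of 8 explants and each group has 3 biological replicates. The parents of the embryos are not given, so p-values measure the spread between these pools, and a difference in parents between groups cannot be told apart from the morpholino.

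Rfx6 belongs to the RFX family, DNA-binding proteins that recognise X-box motifs in gene regulatory regions through a winged-helix domain. In mouse and human it is needed to form most hormone-producing islet cells of the pancreas, and it is active more widely in gut endoderm before those cells arise. NF38 falls in the tailbud period, when the frog's liver and pancreas buds grow out of the foregut.

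NF38 libraries held 26629603 to 30665274 counts in the rfx6-MO group and 24040300 to 29148685 in the control group. Across genes, log2 CPM (counts scaled to a common library size) of 2 libraries of the same group correlated with r of 0.989 to 0.991 in rfx6-MO and 0.990 to 0.991 in controls, against 0.964 to 0.967 between the groups. The first principal component of the 6 libraries carried 69.0% of the variance and separated the groups. Identifiers in the table could not be paired with gene symbols: 0 of them matched a RefSeq table of 44456 genes as written, and 1 did once a prefix was dropped. The labelled tissue could therefore not be checked against marker genes, the level of rfx6 was not followed, and genes are described by identifier, level and time course. RNA levels of rfx6 would in any case be no measure of a block in translation. Xenopus laevis is allotetraploid, and near-identical gene copies can share reads, so the value of any single identifier carries that uncertainty.

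Slightly more genes were detected in the morphant explants. Genes at or above 1 CPM numbered 23291 ± 19.9 in rfx6-MO and 22731 ± 64.7 in control libraries (mean ± SD, n = 3 each; exact two-sided permutation test, p = 0.1, the smallest that 3 against 3 allows). Genes with at least 1 count numbered 32677 ± 219 in rfx6-MO and 32113 ± 253 in controls (exact p = 0.1). The 100 most abundant genes took 24.7 ± 0.725% of counts in rfx6-MO and 24.7 ± 0.0486% in controls (exact p = 1). The groups did not overlap in either count of detected genes and did overlap in the share taken by abundant genes.

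The rfx6 morpholino was accompanied at NF38 by many changes of small size, and large changes lay mostly on the higher side. With edgeR's quasi-likelihood test and a Benjamini-Hochberg adjusted p under 0.05, 13344 of 28313 genes were called, 47.1% of those tested. Of these, 7203 were higher in rfx6-MO (25.4%) and 6141 were lower (21.7%). Among the 3094 genes called and changed at least 2-fold (10.9%), 2550 were higher (9.01%) and 544 were lower (1.92%), so that 82.4% were higher. At 4-fold or more, 434 were higher and 109 lower, and at 8-fold or more 149 were higher and 22 lower. CPM values of the 2 groups did not overlap for 15744 genes (55.6% of those tested), among them 2508 of the genes at least 2-fold higher and 530 of those at least 2-fold lower. In limma fits of log2(TPM + 1), where the added 1 compresses low genes, 856 genes were at least 2-fold higher and 219 lower, and with genes below a mean of 1 CPM left out, the lower count was 298. Fewer cells of a type and less RNA per cell cannot be told apart in such pooled tissue.

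Direction varied with the mean level of a gene over all 24 libraries. Below a mean of 1 CPM over all libraries, 655 of 5463 genes were at least 2-fold higher (12.0%) and 250 lower (4.58%). From 1 to 10 CPM there were 1095 higher and 227 lower among 10216 genes. From 10 to 100 CPM, 693 of 11052 genes were higher (6.27%) and 65 lower (0.588%). At 100 CPM or more, 107 of 1582 genes were higher (6.76%) and 2 were lower (0.126%). Changes of any size ran the other way in these upper ranges: 3138 genes were called higher and 3596 lower from 10 to 100 CPM, and 499 higher and 665 lower at 100 CPM or more. Median log2 fold changes were 0.17, 0.06, -0.04 and -0.05 in the 4 ranges, in ascending order of level. The counts of changes of any size move with library scaling, as given below. Because the ranges use all libraries, a gene abundant only at NF38 can fall in a lower range. By mean level in NF38 controls, 43 of the 2-fold higher and 9 of the 2-fold lower genes were at 100 CPM or more. By mean level in NF38 morphants the numbers were 96 and 2.

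**Figure D1:**
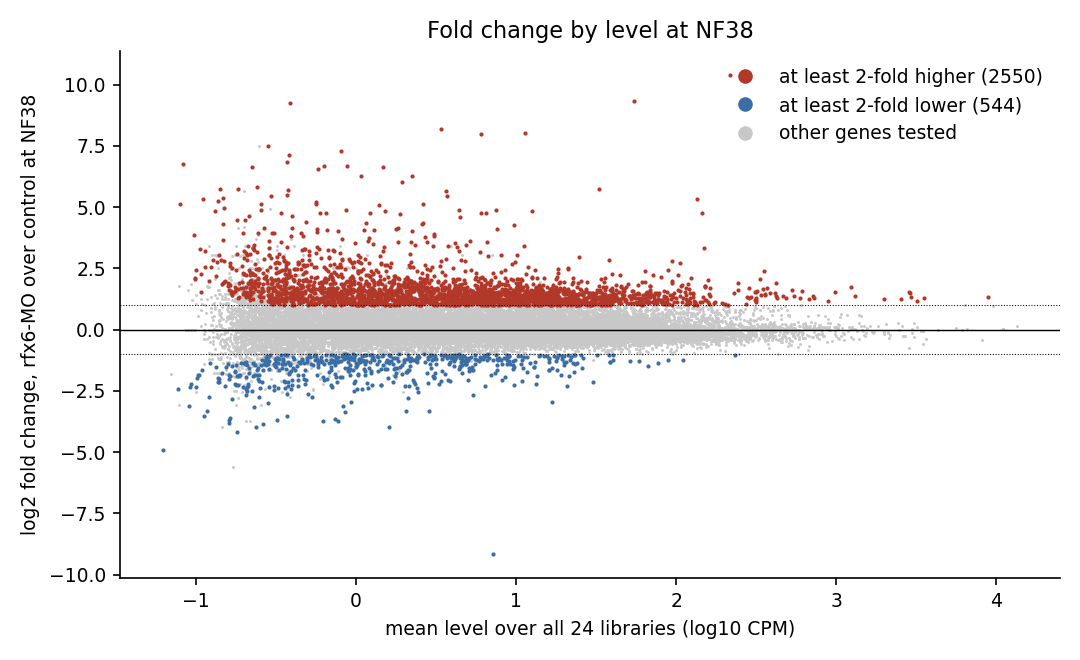
Log2 fold change of rfx6-MO over control at NF38 (vertical) against the mean level over all 24 libraries (horizontal, log10 CPM), 1 point per gene tested. Genes called and at least 2-fold changed are coloured, 2550 higher in red and 544 lower in blue, and dotted lines mark 2-fold; above 100 CPM the coloured points lie almost wholly on the higher side (107 against 2).

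Because 2-fold increases reached abundant genes, they took a sizeable part of the RNA. Summed over the 2550 higher genes, the level was 76963, 74086 and 74480 CPM in rfx6-MO libraries, against 28695, 29203 and 28845 CPM in controls. Summed over the 544 lower genes, it was 2881, 2794 and 2823 CPM in rfx6-MO libraries, against 7035, 7051 and 7027 CPM in controls. These genes were chosen by this contrast, and the sums describe its size. The gain came to 46262 CPM and the loss to 4205 CPM. The 10 genes with the largest gain supplied 32.3% of it, and the 10 with the largest loss supplied 31.7% of the loss. Higher genes had a median of 4.51 CPM in rfx6-MO and 1.61 CPM in controls, and lower genes a median of 1.09 CPM in rfx6-MO and 2.94 CPM in controls. Of the higher genes, 501 were below 1 CPM in rfx6-MO and 1043 in controls. Of the lower genes, 260 were below 1 CPM in rfx6-MO and 131 in controls.

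How far these counts depend on library scaling was examined with 7 other scalings and with each of the 24 libraries as the reference of the trimmed mean of M-values (TMM). The balance of all calls was not stable. TMM with its default reference library, a BMS493 NF25 library, gave 7203 higher and 6141 lower. TMM referred to an rfx6-MO NF38 library gave 7133 higher and 6253 lower, and TMM referred to a control NF38 library gave 7027 and 6387. Relative log expression (DESeq2's size factors) gave 6820 higher and 6652 lower, and the plain library total 6587 higher and 6553 lower. With the upper quartile, 6696 genes were higher and 6851 lower, and with the median of all genes set to 0 in every library, 6623 were higher and 6941 lower. Setting instead the mode of the fold changes of genes at 10 CPM or more to 0 gave 8849 higher and 4042 lower. The sign of the majority thus turned between scalings. Over the 24 TMM references, 18 put more genes higher and 6 put more genes lower. The 6 were the 3 control NF33 and the 3 BMS493 NF33 libraries, with the extreme at 5913 higher and 8370 lower. All 6 NF38 libraries, used as the reference, put more genes higher.

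The shift behind this was small. The median log2 fold change of all genes was 0.01 under the default TMM, -0.01 under the library total and 0.11 under the mode scaling, and it lay between -0.08 and 0.01 over the 24 references. Under the default TMM, quartiles of the fold change were -0.23 and 0.40, and the mode for the 12634 genes at 10 CPM or more was -0.10. The distribution was therefore skewed, with its peak below 0 and a long upper tail. The larger changes kept their direction. The count of genes at least 2-fold higher ranged from 2185 to 2970 and the count at least 2-fold lower from 445 to 709 over all 32 settings, a few of which use the same reference library. No gene was called in both directions by different scalings. Called higher under every setting were 5912 genes (82.1% of those called higher under the default) and called lower under every setting 4042 genes (65.8%). At 2-fold or more, 2184 genes were higher under every setting (85.6%) and 445 lower (81.8%), and at 4-fold or more 369 were higher and 89 lower.

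**Figure D2:**
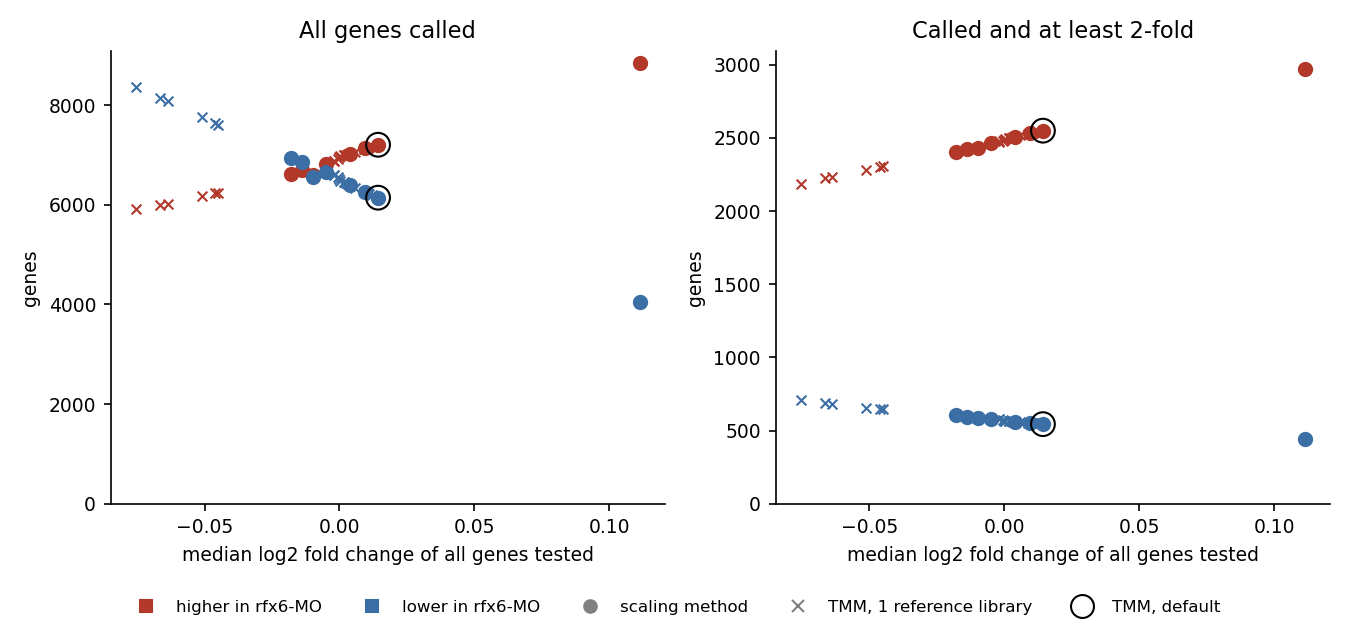
Genes called higher (red) and lower (blue) in rfx6-MO at NF38 under each library scaling, against the median log2 fold change of all genes tested under it; the left panel holds all calls and the right panel those of at least 2-fold. Circles are 8 scaling methods, crosses are TMM with each of the 24 libraries as reference and open rings mark the default TMM; the 2 colours cross in the left panel (7203 and 6141 under the default, 5913 and 8370 at the extreme reference) and stay apart in the right one.

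Single genes were named for the largest differences in CPM among those called, at least 2-fold changed and without overlap between the groups. Their lack of overlap and their calls are thus set by the choice. Among all genes tested, 55.6% did not overlap. XBXL10_1g8295 was at 4691, 4497 and 4603 CPM in rfx6-MO libraries, against 1779, 1866 and 1790 CPM in controls. All 3 morphant values lay above all 3 control values (log2 fold change 1.34, SE 0.05, edgeR adjusted p = 8.58e-36). In controls the same gene was at 11813 ± 414 CPM at NF25 and 6707 ± 351 CPM at NF33 (SD, n = 3 each), so its NF38 level in morphants stood between the control levels of NF33 and NF38. Morphants had held it above controls at both earlier stages, at 14106 ± 549 CPM at NF25 and 12205 ± 595 CPM at NF33. XBXL10_1g30506 was at 3698, 3334 and 3392 CPM in rfx6-MO libraries, against 1370, 1434 and 1402 CPM in controls. The groups again did not overlap (log2 fold change 1.31, SE 0.05, adjusted p = 2.13e-36). At NF33 it had been at 4773 ± 193 CPM in rfx6-MO and 3138 ± 136 CPM in controls.

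Both leading lower genes were genes that controls switched on during culture. XBXL10_1g16038 was at 473, 460 and 447 CPM in rfx6-MO libraries, against 939, 937 and 928 CPM in controls, with no overlap (log2 fold change -1.02, SE 0.05, edgeR adjusted p = 1.91e-21). Controls had held it at 6.94 ± 0.613 CPM at NF25 and 246 ± 6.01 CPM at NF33, and NF33 morphants at 61.1 ± 6.72 CPM (SD, n = 3 each). XBXL10_1g20198 was at 124, 120 and 120 CPM in rfx6-MO libraries, against 339, 334 and 349 CPM in controls, again with no overlap (log2 fold change -1.49, SE 0.05, adjusted p = 1.68e-38). At NF33 it was at 5.47 ± 0.125 CPM in rfx6-MO and 45.6 ± 1.91 CPM in controls. For both genes the NF38 morphants stood above the NF33 controls and below the NF38 controls. Each of these 4 genes kept its direction and an adjusted p under 0.05 under all 20 alternative settings tried for it. The choice of large changes favours this. Over those settings the log2 fold change of XBXL10_1g16038 ranged from -1.082 to -0.925, so it was not always at least 2-fold.

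**Figure D3:**
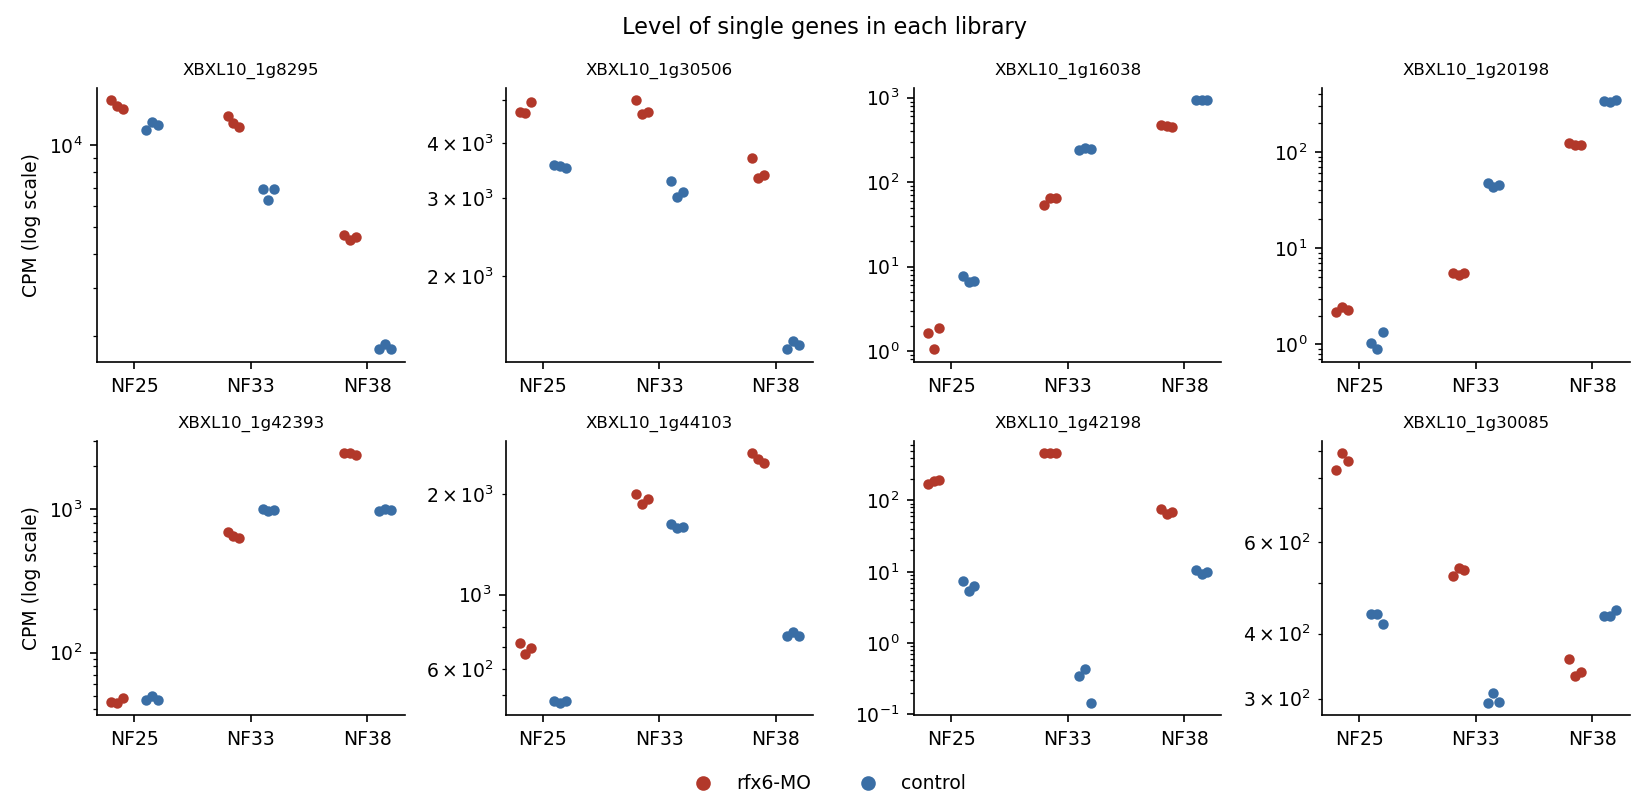
CPM (log scale) of the 8 named genes by stage, 1 point per library, with rfx6-MO in red to the left of controls in blue at each stage. At NF38 the 3 morphant and the 3 control points do not overlap in any panel, a condition of choice for the genes named for the NF38 contrast. XBXL10_1g42198 shows the widest gap at NF33 (458 CPM in rfx6-MO and 0.307 CPM in controls).

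To ask whether the NF38 changes followed the normal time course, genes were classed by the control libraries of NF25 and NF33, which play no part in the NF38 contrast. In controls, 3772 genes (13.3% of those tested) were at least 2-fold lower at NF33 than at NF25, 5359 (18.9%) were at least 2-fold higher, together 32.3%, and 19182 did neither. Genes that fall in the control course were raised in NF38 morphants. Their median log2 fold change was 0.48, which is 0.47 above the median of all genes, and 972 of them (25.8%) were at least 2-fold higher against 64 (1.70%) lower. Among all genes tested those shares were 9.01% and 1.92%. In limma fits of log2(TPM + 1) the falling class stood 0.27 above the median of all genes. Falling genes made up 38.1% of the 2550 higher genes and 11.8% of the 544 lower genes.

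Library by library, the falling class stood 0.418 ± 0.0106 above the median of all genes on the log2 scale in rfx6-MO and at -0.000947 ± 0.00265 in controls (SD, n = 3 each; exact two-sided permutation test, p = 0.1, the smallest possible). The scale is set to the mean of the NF38 controls. Its summed level was 57165, 55634 and 56034 CPM in rfx6-MO libraries, against 37855, 37921 and 37934 CPM in NF38 controls. The NF38 morphant sums did not overlap those of their own controls. NF33 controls stood at 55782 to 57370 CPM, which covers 2 of the 3 morphant sums and lies just above the third. The medians did not match in this way. Relative to all genes, the class stood at 0.215 to 0.220 in NF33 controls and 0.406 to 0.426 in NF38 morphants. NF33 controls also enter the rule of the class, which favours a low level in them. The raised share held in the upper ranges of level: at least 2-fold higher were 14.3% of falling genes below 1 CPM, 29.2% from 1 to 10, 29.0% from 10 to 100 and 33.2% at 100 CPM or more. For genes under 2-fold in the course the same ranges gave 12.1%, 7.41%, 2.95% and 2.23%.

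Genes that rise in the control course differed little as a class at NF38. Their median log2 fold change was 0.0031, 0.011 below the median of all genes, and up to 0.074 below it in the alternative fits. Their summed level was 204312 ± 6499 CPM in rfx6-MO and 207706 ± 1061 CPM in controls (SD, n = 3 each; exact p = 0.4), and the groups overlapped. Relative to the median of all genes, the class stood at -0.00836 ± 0.00500 in rfx6-MO and 0.000711 ± 0.00426 in controls on the log2 scale (exact p = 0.1, the smallest possible), a small difference without overlap. Within the class, changes ran both ways, with 462 genes (8.62%) at least 2-fold higher and 262 (4.89%) at least 2-fold lower. Rising genes still made up 48.2% of the 544 lower genes and 18.1% of the 2550 higher genes. At NF33 the class had a median of -0.47 and the falling class one of 0.68, but those values share their control libraries with the class rule and are given as a description. Genes under 2-fold in the course had a median of -0.02 at NF38, with 1116 (5.82%) higher and 218 (1.14%) lower.

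**Figure D4:**
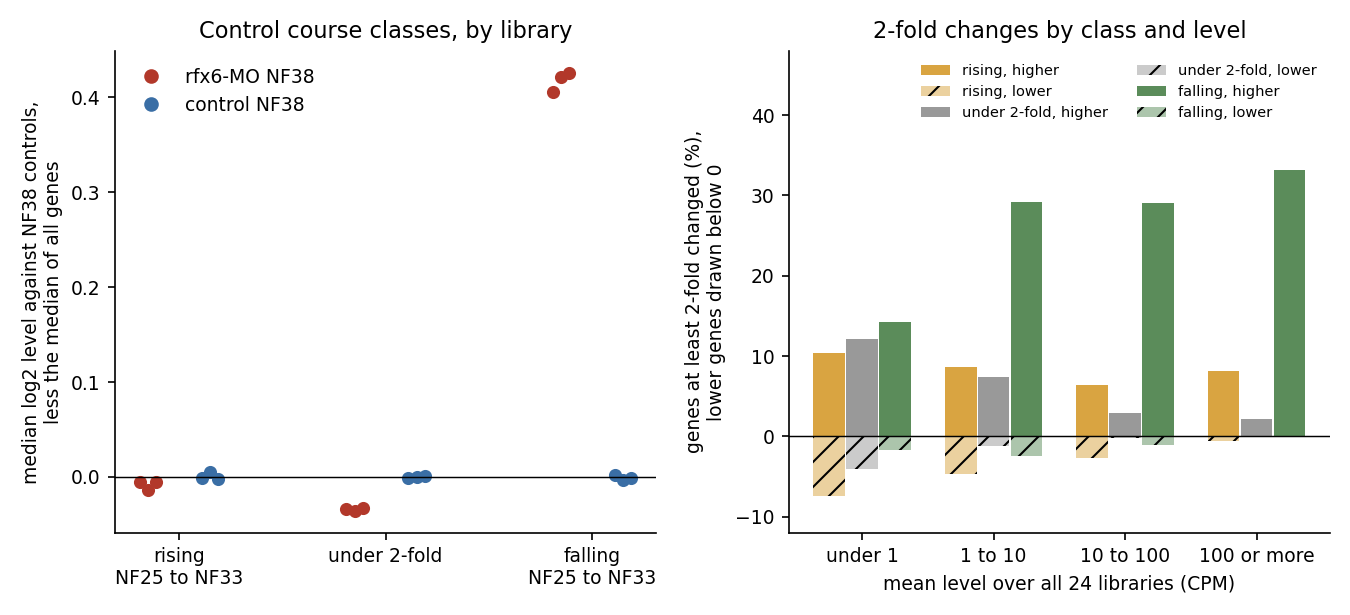
Left, median log2 level of each control course class in each NF38 library, less the median of all genes in that library, with rfx6-MO in red to the left of controls in blue; the falling class lies near 0.42 in the morphants and near 0 in the controls. Right, percent of each class at least 2-fold higher (above 0) and lower (below 0) in rfx6-MO by range of mean level over all 24 libraries (CPM), where the falling class reaches 33.2% higher at 100 CPM or more.

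Splitting the classes by what rfx6 morphants showed at NF33 separated the NF38 outcome further; both splits use NF33 control libraries, while the NF38 values use neither. Of 995 falling genes at least 2-fold higher in NF33 morphants, 38.8% were at least 2-fold higher again at NF38, with a median log2 fold change of 0.88. Of 2750 falling genes that were neither higher nor lower at NF33 by that rule, 21.2% were higher at NF38 (median 0.38). Of 153 rising genes that were higher in NF33 morphants, 49.7% were higher at NF38 (median 1.01). Of 1350 rising genes at least 2-fold lower in NF33 morphants, 175 (13.0%) were still at least 2-fold lower at NF38, and 44 (3.26%) were at least 2-fold higher. The median for these 1350 genes was -0.35 at NF38 and -1.72 at NF33. For the 995 falling and the 153 rising genes that were higher in NF33 morphants, the NF33 medians were 1.68 and 1.52. These NF33 medians follow from the split by NF33 effect, and such a choice favours a smaller change at NF38.

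The NF38 contrast shares no library with the contrasts of rfx6-MO or BMS493 explants with their controls at the earlier stages, so its lists could be set against theirs. At NF33, 49.7% of genes were called (25.5% higher, 24.3% lower) and 12.3% were called and at least 2-fold changed (6.63% higher, 5.64% lower). Of the 2550 genes higher at NF38, 766 were at least 2-fold higher in NF33 morphants, which is 30.04% of the NF38 list and 40.8% of the NF33 list of 1876. A further 956 were called higher by less than 2-fold, 732 were not called and 96 were called lower. Of the 544 genes lower at NF38, 233 were at least 2-fold lower at NF33, 42.8% of the NF38 list but 14.6% of the NF33 list of 1597, while 230 were not called there. Read from the NF33 side, the 1876 higher genes had a median log2 fold change of 0.90 at NF38 and the 1597 lower genes one of -0.36.

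Overlap with NF25 was smaller. There, 34.6% of genes were called (18.0% higher, 16.6% lower) and 7.02% at least 2-fold changed (4.34% higher, 2.68% lower). Shared with NF38 were 280 higher genes (10.98% of the NF38 list, 22.8% of the NF25 list) and 54 lower genes (9.93% of the NF38 list, 7.11% of the NF25 list). At NF25, 1415 of the 2550 higher genes and 390 of the 544 lower genes were not called.

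Part of the NF38 lists was also changed by BMS493 at NF33, where 7.28% of genes were at least 2-fold changed (4.17% higher, 3.10% lower). Of the NF38 higher genes, 442 were at least 2-fold higher under BMS493, 17.3% of the NF38 list and 37.4% of the BMS493 list of 1182. At least 2-fold in the opposite direction there were 79, or 3.10%, equal to the background of 3.10%. A further 214 were called higher by less than 2-fold, 1455 were not called and 439 were called lower at any size. The share of all genes called at any size under BMS493 is not given here. These counts are therefore not read as a departure from it. The median log2 fold change of the 2550 genes under BMS493 at NF33 was 0.05, against 0.73 in the morphants of that stage. Of the NF38 lower genes, 143 were at least 2-fold lower under BMS493, 26.3% of the NF38 list and 16.3% of the BMS493 list of 879. At NF25, where BMS493 changed 6.23% of genes at least 2-fold (3.83% higher, 2.40% lower), 247 higher genes (9.69% of the NF38 list, 22.8% of the BMS493 list) and 45 lower genes (8.27% of the NF38 list, 6.63% of the BMS493 list) were shared. At least 2-fold in the opposite direction were 86 of the higher genes (3.37%, background 2.40%) and 23 of the lower genes (4.23%, background 3.83%).

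Whether the rfx6 effect itself differed between stages was tested as the difference of the 2 log2 fold changes. Between NF38 and NF33 it differed for 8774 genes (31.0%), with 5276 more positive at NF38 (18.6%) and 3498 more negative (12.4%). The majority of that split was not stable. It turned in limma fits of log2(TPM + 1), with 2898 more positive and 5262 more negative, and of log2(TPM + 0.1), with 2630 and 4978. It also turned when the single library rfx6-MO NF33 replicate 1 was left out, with 4330 and 4354. Of the 2550 genes higher at NF38, 1319 (51.7%) had a larger increase than at NF33 and 132 a smaller one. Of the 544 lower genes, 150 (27.6%) had a larger decrease and 100 a smaller one. Between NF38 and NF25 the effect differed for 9295 genes (32.8%), of which 5308 were more positive at NF38 (18.7%) and 3987 more negative (14.1%). This majority turned with relative log expression (4649 more positive, 4982 more negative), with the median of all genes (4624 and 5022), with no filter (4516 and 5127) and with DESeq2 (4513 and 4823). It turned as well without control NF25 replicate 2 (4157 and 4965) and without rfx6-MO NF25 replicate 1 (4305 and 5144), 2 (4126 and 5057) or 3 (4181 and 5089). No direction is therefore read from either split. Against NF25, 1663 of the higher genes (65.2%) and 229 of the lower genes (42.1%) had a larger change at NF38. These lists were chosen by the NF38 effect, which favours a larger change there, and both tests run across the batch tag of the labels, which repeats the stage.

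**Figure D5:**
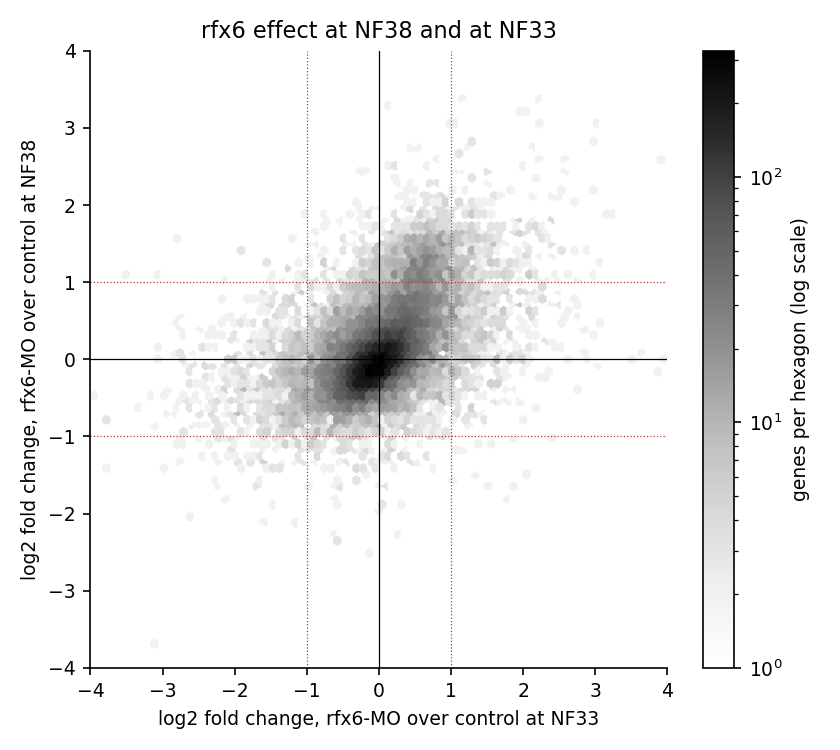
Log2 fold change of rfx6-MO over control at NF38 (vertical) against that at NF33 (horizontal) for the genes tested, as hexagons shaded by the number of genes on a log scale; dotted lines mark 2-fold and 354 genes lie beyond the axis limit of 4. Genes at least 2-fold lower at NF33 have a median of -0.36 at NF38, nearer to 0 than the median of 0.90 for genes at least 2-fold higher at NF33.

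Single genes showed each kind of change. Those given here and in the next paragraph were named for the largest change of effect in CPM between NF33 and NF38. A large change, its sign and its call therefore follow from the choice. XBXL10_1g42393 was at 2473, 2467 and 2415 CPM in NF38 rfx6-MO libraries, against 976, 1005 and 990 CPM in controls. At NF33 it had been lower in morphants, at 663 ± 32.2 CPM in rfx6-MO and 986 ± 17.1 CPM in controls (SD, n = 3 each). The log2 fold change was 1.31 at NF38 and -0.57 at NF33, a difference of 1.88 (SE 0.06, edgeR adjusted p = 7.90e-40). XBXL10_1g44103 was at 2646, 2545 and 2477 CPM in NF38 rfx6-MO libraries, against 750, 772 and 752 CPM in controls. Its NF33 levels were 1932 ± 70.4 CPM in rfx6-MO and 1601 ± 23.9 CPM in controls, and the effect was larger by 1.48 at NF38 (SE 0.06, adjusted p = 7.08e-33). In controls the level at NF38 stood below that at NF33, and in morphants it stood above.

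The opposite pattern was an effect less positive at NF38 than at NF33. XBXL10_1g42198 was at 76.2, 63.9 and 69.0 CPM in NF38 rfx6-MO libraries, against 10.5, 9.19 and 9.98 CPM in controls, a log2 fold change of 2.81. At NF33 it was at 458 ± 1.60 CPM in rfx6-MO and 0.307 ± 0.146 CPM in controls (SD, n = 3 each), a log2 fold change of 10.52 (difference NF38 minus NF33 -7.71, SE 0.17, edgeR adjusted p = 1.84e-38). At NF25 it was at 184 ± 11.5 CPM in rfx6-MO and 6.38 ± 0.994 CPM in controls, a log2 fold change of 4.84. The control level at NF33 thus lay below those at NF25 and NF38. It rests on 9, 12 and 4 counts, so the size of the NF33 fold change is uncertain. XBXL10_1g30085 was at 357, 331 and 337 CPM in NF38 rfx6-MO libraries, against 432, 433 and 444 CPM in controls. At NF33 the order was reversed, with 527 ± 9.59 CPM in rfx6-MO and 299 ± 7.17 CPM in controls. Its log2 fold change was -0.35 at NF38 and 0.82 at NF33 (difference -1.17, SE 0.06, adjusted p = 2.28e-27).

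Some genes of the NF38 lists were not called at NF33 and had a larger effect at NF38. Of the 732 higher genes not called at NF33, 389 had a larger effect at NF38 by the test of the difference. Their median level was 3.05 CPM in rfx6-MO and 1.12 CPM in controls at NF38, against 1.77 CPM in rfx6-MO and 1.68 CPM in controls at NF33. By control course, 149 of them were rising genes (38.3%), 82 falling (21.1%) and 158 under 2-fold (40.6%). Among all genes tested those shares were 18.9%, 13.3% and 67.7%. By mean level over all libraries, rising genes were 2531 of the 10216 genes at 1 to 10 CPM and 1512 of the 5463 below 1 CPM. NF33 control libraries enter both the course class and the rule for the 389 genes, which favours rising genes among them. The shares are therefore a description only. Of the 230 lower genes not called at NF33, 93 had a larger effect at NF38. Their median was 0.700 CPM in rfx6-MO and 2.43 CPM in controls at NF38, against 0.754 CPM in rfx6-MO and 0.652 CPM in controls at NF33. By these medians the control level of the 93 genes was higher at NF38 than at NF33, and the morphant level was about the same at both stages. By control course, 20 of the 93 genes were rising (21.5%), 21 falling (22.6%) and 52 under 2-fold (55.9%). Here the shared NF33 control libraries favour falling genes. Close medians at NF33 and split medians at NF38 follow from the rule that picked both sets, and the values only describe them.

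Set against the earlier control stages, the 2550 higher genes did not form a single class. In NF38 morphants, 943 of them (37.0%) lay between their NF25 and NF33 control levels, 786 (30.8%) lay at least 2-fold above both, 523 lay above both by less, 254 lay below both by less than 2-fold and 44 at least 2-fold below. In NF38 controls, 760 (29.8%) lay at least 2-fold below both earlier control levels and 252 lay at least 2-fold above both. Their summed level was 128227 ± 1289 CPM at NF25, 88495 ± 2720 CPM at NF33 and 75176 ± 1560 CPM at NF38 in rfx6-MO, against 103082 ± 980 CPM, 54494 ± 1439 CPM and 28914 ± 261 CPM in controls of the same stages. In both groups the sum was smaller at each later stage. Both this list and that of the 544 lower genes were chosen by the NF38 contrast. The order of the 2 groups at NF38, in sums and in positions, therefore follows from that choice. For the 544 lower genes, 288 (52.9%) lay at least 2-fold above both earlier levels in NF38 controls and 146 (26.8%) did so in NF38 morphants. Their summed level was 1953 ± 28.7 CPM, 1329 ± 35.5 CPM and 2833 ± 44.6 CPM at the 3 stages in rfx6-MO, against 2249 ± 41.0 CPM, 3019 ± 38.4 CPM and 7037 ± 12.4 CPM in controls.

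Genes present in a single NF38 group were few. With at least 10 counts in each library of a group and 0 in every library of the other, 7 genes were found in rfx6-MO alone and 0 in controls alone. The mean count of the 7 per rfx6-MO library had a median of 22 and a maximum of 83.7. All 7 were called by edgeR, which follows from the rule, and 47.1% of all genes tested were called. Allowing up to 3 counts in all in the other group raised the numbers to 32 for rfx6-MO and 1 for controls, and asking for 30 counts in each library lowered them to 1 and 0. Without control replicate 1, 2 or 3 the rfx6-MO number was 13, 14 or 18. At NF33, 4 of the 7 were also at 10 counts or more in every rfx6-MO library, and 2 had 0 counts in every control library of all stages. A count of 0 in a library makes an expected count much above 3 in that library unlikely, and this bound covers counting error only.

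The mix of transcript forms per gene changed little as far as the tables show it. The deposited count divided by the deposited TPM (abundance corrected for transcript length) is proportional to the effective transcript length used for a gene, so a shift in it reflects another mix of forms. Of 11604 genes with at least 5 TPM and 100 counts in all 6 NF38 libraries, 2 were called at an adjusted p under 0.05 and at least 1.2-fold (0.0172%), both shorter in rfx6-MO. At an unadjusted p under 0.05 and the same fold there were 66, with 42 longer and 24 shorter. Relative to the median gene of the same library, XBXL10_1g40774 had a length of 0.617, 0.632 and 0.633 in rfx6-MO libraries, against 0.831, 0.848 and 0.870 in controls (log2 difference -0.44, limma adjusted p = 0.0489). For XBXL10_1g23952 the lengths were 0.847, 0.839 and 0.839 in rfx6-MO libraries, against 1.05, 1.01 and 1.03 in controls (log2 difference -0.29, adjusted p = 0.0489). Neither gene's groups overlapped, which was also so for 4.55% of the 11604 genes. The count of 2 fell to 0 with the replicate number as a block and when rfx6-MO replicate 2 or 3 or control replicate 1 or 3 was left out, and without control replicate 2 it was 1, a longer one.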

How the data were processed

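Expected counts per gene, stored as whole numbers, and TPM were deposited by the authors for 24 libraries in 1 table each. RSEM 1.3.0 and Bowtie2 are named in the submitters' processing notes. Not given in the sources used here were genome build, annotation and strand setting of the counting. The mRNA kit kept strand, per the labels' protocols. Reads without a gene held 0% of counts and their row was left out.

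The main test was edgeR's robust quasi-likelihood test (edgeR 4.0.16, R 4.3.3) on TMM-scaled counts. Genes passed filterByExpr over 8 groups (minimum count 10, minimum total 15), and all libraries shared a single estimate of spread. A gene was called when its p, adjusted by Benjamini-Hochberg across the 28313 genes, was under 0.05, and fold sizes use a threshold of 2. CPM are on the TMM scale. Course classes use control NF33 against control NF25 at the same thresholds. Counts divided by TPM, centred on each library's median, were tested with limma 3.58.1. Single values were compared by exact permutation. The edgeR test of the NF38 contrast, its change against NF33 and NF25, and the length test were tried on simulated data, where the share of false calls for the NF38 contrast lay above the nominal level. The other contrasts and the alternative tools were not simulated. Alternatives were DESeq2 1.42.0, limma on log2(TPM + 1) and log2(TPM + 0.1), other scalings and filters, a replicate block, and leaving out each replicate. The 24 TMM references, the mode scaling, the block within the 6 NF38 libraries and leaving out earlier-stage replicates were added after the data had been seen.

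Named genes are those with the largest difference in CPM among non-overlapping genes at least 2-fold changed (for the change of effect between stages, by the difference of the effect in CPM; for transcript length, by the size of shift), 2 in each direction, because identifiers could not be paired with symbols. For the same reason the planned lists of cell type markers, stress, retinoic acid and Rfx6-related genes gave no values. The samples, classes and lists were chosen with earlier results of these data known.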

Additional observations from a re-analysis of the deposited data

Results flagged for a closer look

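The effect of the rfx6 morpholino differed between stages by a test of the difference itself. It differed between NF38 and NF33 for 8774 genes (edgeR, adjusted p under 0.05), and between NF38 and NF25 for 9295 genes. The single genes below were named for the largest change of effect in CPM between NF33 and NF38. A large change, its sign and its call follow from that choice. The log2 fold change of XBXL10_1g42393 was higher at NF38 than at NF33 by 1.88, with the morphants above the controls at NF38 and below them at NF33. That of XBXL10_1g44103 was higher at NF38 by 1.48, with the morphants above the controls at both stages. The difference was -7.71 for XBXL10_1g42198, again with the morphants above the controls at both stages, and -1.17 for XBXL10_1g30085, with the morphants below the controls at NF38 and above them at NF33. For XBXL10_1g42198 the NF33 controls held only 9, 12 and 4 counts. Its difference ranged from -7.78 to -5.80 over 19 alternative settings. These tests run across the batch tag of the labels, which repeats the stage, so stage and batch cannot be told apart in them.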

How the results depend on the processing

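Class medians relative to the median of all genes kept their sign under every alternative run on them. So did the NF38 fold changes of the genes named for the NF38 contrast. For the genes named for the change of effect against NF33, that change kept its sign. The majority among all calls did not: it turned with some scalings, with no filter (6284 higher, 7432 lower) and in the limma fits (5515 and 6190 with log2(TPM + 1), 5220 and 5726 with log2(TPM + 0.1)). The majority of the change of effect turned too, as given with those counts. Counts of all calls moved by less than 1.5 times except that the mode scaling gave 4042 lower genes. At 2-fold or more, limma on log2(TPM + 1) gave 1075 genes (856 higher, 219 lower), and a mean of at least 1 CPM left 298 lower. For the change of effect against NF33, limma gave 2898 (log2(TPM + 1)) and 2630 (log2(TPM + 0.1)) more positive, and 5262 more negative with log2(TPM + 1). The cause of these shifts was not tested.

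The falling class stood above the median of all genes by 0.492 and 0.479 with TMM referred to an rfx6-MO and a control NF38 library, 0.478 with relative log expression, 0.494 with the upper quartile, 0.494 with library totals, 0.516 with the mode, 0.427 with no filter, 0.516 with a mean of at least 1 CPM, 0.483 with DESeq2, 0.275 with log2(TPM + 1) and 0.336 with log2(TPM + 0.1). The rising class stood at -0.0188 with the upper quartile, -0.0191 with library totals, -0.0182 with the mode, -0.0593 with no filter, -0.0168 with DESeq2, and -0.0743 and -0.0226 in the TPM fits. Genes under 2-fold stood at -0.0306 with the rfx6-MO reference, -0.0368 with the median, -0.0274 with the mode, -0.0216 with no filter, -0.0296 with a mean of at least 1 CPM and -0.0124 with log2(TPM + 1).

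Leaving out each replicate gave 11987 to 12468 called genes (6380 to 6663 higher, 5483 to 5805 lower) and 2999 to 3061 at 2-fold or more (2426 to 2514 higher, 524 to 573 lower). The change of effect was called for 7810 to 8684 genes against NF33 (4330 to 5016 more positive, 3078 to 4354 more negative) and for 8471 to 9449 against NF25 (4126 to 5169 and 3608 to 5144). Class medians, relative to the median of all genes, lay at 0.454 to 0.489 (falling), -0.0209 to -0.00845 (rising) and -0.0349 to -0.0314 (under 2-fold). Genes in a single group numbered 7 to 18 for rfx6-MO and 0 to 3 for controls, against 32 and 1 with up to 3 counts allowed and 1 with 30 counts required for rfx6-MO. Genes with a length shift numbered 0 to 2 (0 to 1 longer, 0 to 2 shorter), 0 with the replicate block, and 83 by non-overlap with a 1.2-fold shift (49 longer, 34 shorter). Without a fold threshold, 4.55% of the 11604 genes in the length test did not overlap.

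Replicate numbers showed no pairing by this measure: deviations of same-numbered libraries correlated at -0.0668, -0.0176 and -0.0234, against -0.0279 to 0.0529 for differently numbered ones. Whether same-numbered pools shared parents or a day was not tested. With the replicate number as a block, 13252 genes were called (7153 higher, 6099 lower), 3086 at 2-fold or more, 8676 for the change against NF33 and 9208 against NF25. Genes near the filter rest on few counts, and changes absent there may be undetected at this depth.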

Other observations

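Some of the largest increases at NF38 belonged to genes that every NF25 library held and that were near 0 in NF33 libraries of both rfx6-MO and control explants. By a rule chosen after the values were seen (at least 20 counts in each NF25 library and each library of an NF38 group, and at most 10 in each library of the other NF38 group and of rfx6-MO and control NF33), 6 genes were held by rfx6-MO NF38 and 0 by control NF38. A further 30 genes met the NF25 and NF33 conditions and were near 0 in both NF38 groups. XBXL10_1g17973 had 627, 625 and 705 counts in NF38 rfx6-MO libraries, against 0, 1 and 0 in NF38 controls. At NF33 it had 2, 10 and 5 counts in rfx6-MO and 2, 2 and 1 in controls, although BMS493 explants of that stage had 2356, 2084 and 2378. At NF25 its mean was 17306 counts in rfx6-MO and 11025 in controls. XBXL10_1g20751 had 304, 304 and 323 counts in NF38 rfx6-MO libraries, against 1, 0 and 0 in NF38 controls, and 640, 495 and 610 in BMS493 NF33 libraries. It had 2, 0 and 2 counts in rfx6-MO NF33 and 1, 2 and 1 in control NF33. Of the 6 genes, 5 were also at 20 counts or more in all BMS493 NF33 libraries, and of the 30 genes near 0 in both NF38 groups, 0 were. These genes therefore split the libraries by neither stage nor treatment alone, and whether explants, embryos or handling differed between those groups was not tested.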
